A study of Homo sapiens with 3 samples.

Results

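The small non-coding RNA genes of PC3-Luc prostate cancer cells were examined in lines with short hairpins against CTHRC1, a secreted glycoprotein associated with cell migration. They were the rows of the deposited count table with the class miRNA, snoRNA, snRNA, scaRNA or misc_RNA and at least 10 counts summed over the 9 libraries. That rule kept 13 of 477 small RNA rows in a table of 21726 genes, comprising 3 microRNA genes, 2 snoRNA genes and 8 misc_RNA genes, a class that holds signal recognition particle (SRP), 7SK and Y RNA copies and pieces of longer non-coding RNAs. The members were chosen by their summed counts, so the totals themselves are a description. Just inside the minimum lay RNY3P8 and AC009131.1 with 10 counts each and RN7SKP16 with 11, and just outside it lay the snoRNA AC005046.1 and the SRP RNA copy RN7SL130P with 9 each. The best covered member was MIR30A with 390 counts, and the sums within single lines, 13 in sh718, 22 in sh720 and 355 in shCtrl, each met the minimum.

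Each line was represented by 3 libraries. sh718 and sh720 were PC3-Luc cells with 2 different hairpins against CTHRC1, and shCtrl was PC3-Luc cells with a control hairpin. PC3 came from a bone metastasis of a prostate adenocarcinoma and grows without androgen, and all 3 lines also carried luciferase brought in with pMSCV-luc. Cultures were kept 24 h in 6-well plates before total RNA was taken, and single 75-base reads were sequenced. The sources used here do not give the hairpin vectors, the clonality of the lines or whether a line's libraries had cultures of their own. The p-values therefore reflect only how far these libraries vary, which may be technical variation.

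MicroRNAs are cut from hairpin precursors by Drosha and Dicer and guide Argonaute proteins to messenger RNAs through their seed, the bases near the 5′ end. SnoRNAs guide chemical modification of ribosomal RNA, SRP RNA is the scaffold of the particle that brings secretory proteins to the endoplasmic reticulum, 7SK RNA holds back the transcription elongation factor P-TEFb, and Y RNAs bind the Ro protein. MiR-30 family members are known as regulators of epithelial and mesenchymal states, and the human miR-30a hairpin is also widely copied as the frame of engineered short hairpin cassettes. A library of long RNA fragments captures mature microRNAs poorly, so a count on a microRNA gene here is a read from a precursor, from a longer transcript over the same bases or from another copy of the same sequence, and not a level of mature microRNA.

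The mature sequences of the 3 microRNA members are shown because MIR30A carries the largest difference and because MIR1244-2 has identical copies elsewhere. They were taken from RefSeq on GRCh38.p14, which held all 3 members. Capitals mark the seed, bases 2 to 8. MiR-30c and miR-30e are included to show the seed that they share with miR-30a-5p.
hsa-miR-30a-5p: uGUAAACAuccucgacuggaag
hsa-miR-30a-3p: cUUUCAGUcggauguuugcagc
hsa-miR-30c-5p: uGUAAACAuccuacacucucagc
hsa-miR-30e-5p: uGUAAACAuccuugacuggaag
hsa-miR-1244: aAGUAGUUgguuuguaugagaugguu
hsa-miR-4284: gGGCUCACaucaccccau
In the hairpin of MIR30A, at chr6:71403551-71403621 of GRCh38 on the minus strand, capitals mark both mature miRNAs, the 5p arm first.
MIR30A hairpin: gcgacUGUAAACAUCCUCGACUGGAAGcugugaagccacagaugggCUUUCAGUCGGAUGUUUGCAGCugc
The MIR30A gene is 71 bases long, shorter than a read. It shared no exact run of 31 bases or more in the same orientation with a transcript of another gene in the GENCODE v29 annotation. Runs shared in the opposite orientation are not given here for any member. Shorter shared runs were searched only in part.

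Library totals ran from 883663 to 1108960 counts, and mitochondrial transcripts held 12% to 16.4% of them. The targeted gene CTHRC1 was lower in both hairpin lines, at 1.78 ± 0.648 CPM in sh718 and 15.9 ± 5.45 CPM in sh720, against 114 ± 16 CPM in shCtrl (SD, n = 3 each; CPM are counts per 1000000 counts of the library, scaled by the TMM method). The edgeR quasi-likelihood test, Benjamini-Hochberg adjusted over 13138 genes, gave log2 changes of -5.91 (SE 0.31, adjusted p = 2.2e-35) in sh718 and -2.85 (SE 0.19, adjusted p = 9.13e-26) in sh720. Each edgeR SE was back-calculated as the size of the log2 change divided by the square root of the F statistic. Such an SE can fall below counting error where a line has few counts. The epithelial keratins KRT8 and KRT18 had 547 and 1943 counts in sh718, 817 and 2192 in sh720, and 570 and 1809 in shCtrl. The epithelial marker EPCAM had 40 counts in sh718, 120 in sh720 and 108 in shCtrl, and the endothelial marker PECAM1 had 138, 59 and 69 in the same lines, so sh718 stood apart in both. The leukocyte marker PTPRC had 2, 4 and 0 counts and the fibroblast collagen gene COL1A1 7, 11 and 10. The part of these marker differences in the results was not tested. In bulk RNA, fewer cells of a type and less RNA per cell cannot be told apart.

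Small RNA genes made up a thin layer of these libraries. The 477 rows held 1613 counts, of which the 13 members held 735, or 45.6%, and 296 rows (62.1%) had a single count in all 9 libraries together. By library, all small RNA rows had 153, 161 and 138 counts in sh718, 131, 120 and 131 in sh720, and 236, 232 and 311 in shCtrl. Each shCtrl library was above all 6 hairpin libraries. Without MIR30A the sums were 148, 158 and 133 counts in sh718, 127, 104 and 129 in sh720, and 131, 131 and 162 in shCtrl, and the sh718 and shCtrl libraries overlapped, while all sh720 libraries were below them. MIR30A held 3.27%, 1.86% and 3.62% of the small RNA counts in the sh718 libraries, 3.05%, 13.3% and 1.53% in sh720, and 44.5%, 43.5% and 47.9% in shCtrl.

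**Figure D1:**
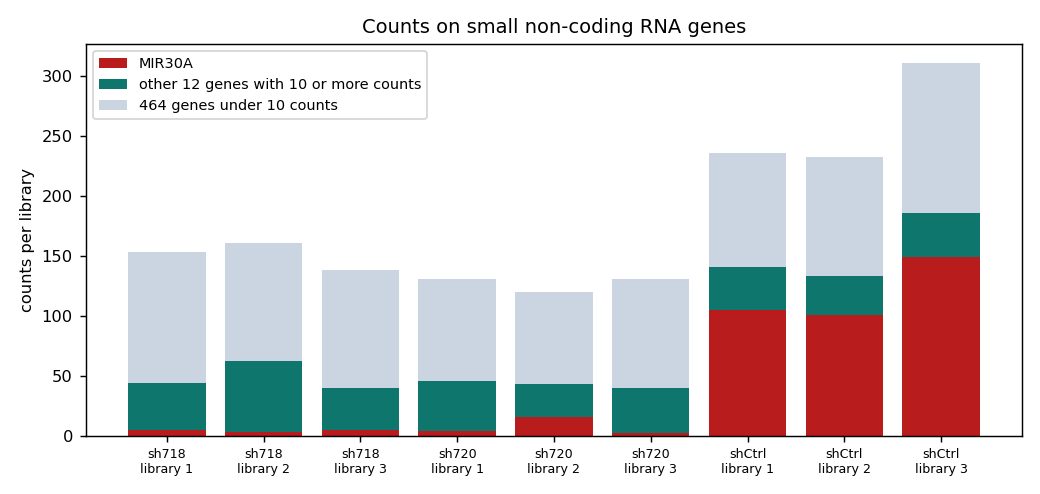
Counts per library on small non-coding RNA genes, stacked as MIR30A, the other 12 genes with 10 or more counts, and the 464 genes under 10 counts. MIR30A holds 101 to 149 counts in the shCtrl libraries and at most 16 in any sh718 or sh720 library, and the 464 genes add 98 to 109 counts in sh718, 77 to 91 in sh720 and 95 to 125 in shCtrl.

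MIR30A, which gives miR-30a-5p and miR-30a-3p, was far lower in both hairpin lines. It had 5, 3 and 5 counts in the sh718 libraries, 4, 16 and 2 in the sh720 libraries, and 105, 101 and 149 in the shCtrl libraries. All 6 hairpin libraries were below every shCtrl library, and the sh720 library with 16 counts stood above the other 5 hairpin libraries. In CPM the gene averaged 4.65 ± 1.47 in sh718, 7.50 ± 7.87 in sh720 and 121 ± 13.3 in shCtrl (SD, n = 3 each). Its summed counts, scaled by library totals after TMM adjustment, were 3.76% of shCtrl in sh718 and 6.02% of shCtrl in sh720. The exact 95% intervals of these ratios, which cover counting error only, ran over 1.98% to 6.51% and 3.73% to 9.26%.

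In the edgeR test MIR30A fell by 4.69 on the log2 scale in sh718 (SE 0.26, adjusted p = 9.01e-33) and by 4.03 in sh720 (SE 0.23, adjusted p = 5.03e-31). These back-calculated SE understate the error, since intervals built from them are narrower than the exact intervals for counting error. DESeq2 gave SE of 0.67 in sh718 and 0.62 in sh720. Among the 13138 genes, counted upwards from the most negative estimate, it ranked 24 in sh718 and 21 in sh720, and by p-value it ranked 9 and 4. Leaving out sh720 library 2, the library with 16 counts, moved the sh720 value to -5.33 (adjusted p = 1.10e-24). No difference between the hairpin lines was called. The comparison of sh718 against sh720 gave -0.67 (SE 0.51, adjusted p = 0.410), with a 95% interval of -1.66 to 0.33, and the estimate turned to 0.62 (adjusted p = 0.612) without that same library. CTHRC1 itself differed between the hairpin lines, with a log2 change of -3.06 (SE 0.51, adjusted p = 5.89e-07) in sh718 against sh720.

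In GENCODE v29, MIR30A lies in an intron of LINC00472, a long non-coding RNA gene on the same strand. It also lies in an intron of AL136164.2, another such gene on that strand, which is not among the genes listed. RefSeq placed no gene but MIR30A itself over these bases. LINC00472 had 0, 0 and 4 counts in sh718, 1, 2 and 1 in sh720, and 5, 0 and 0 in shCtrl. The lines overlapped, and its change was not called in sh718 (-0.27, SE 1.05, adjusted p = 0.908) or in sh720 (-0.34, SE 1.04, adjusted p = 0.929). MIR30A was the only row of its microRNA family among the genes listed, and the other family members were not analysed here. The count table gives a gene identifier and no read positions, so whether the MIR30A reads of shCtrl came from chromosome 6 or from another copy of this hairpin was not tested.

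**Figure D2:**
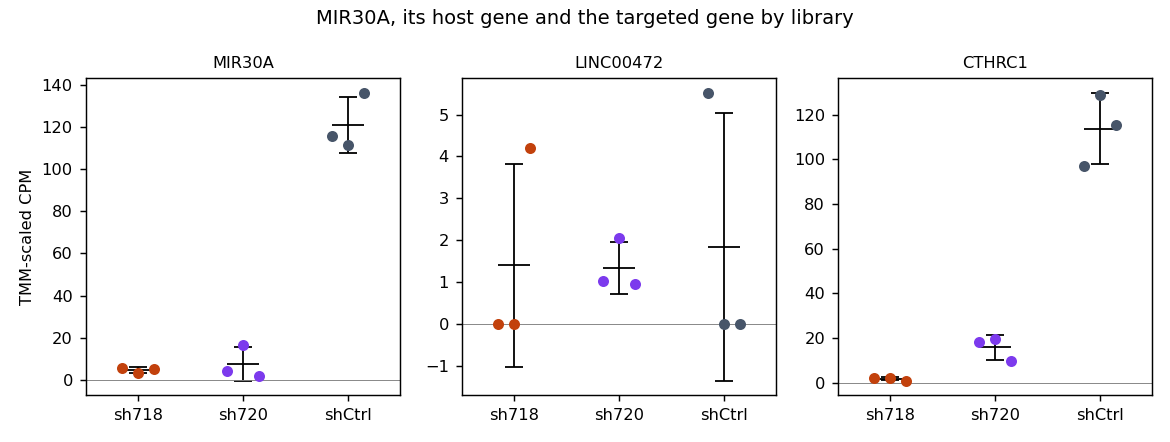
TMM-scaled CPM of MIR30A, its listed GENCODE host gene LINC00472 and the targeted gene CTHRC1 in each library of sh718, sh720 and shCtrl. Points are libraries, and bars are the mean and SD over 3 libraries. MIR30A and CTHRC1 are lower in every hairpin library than in every shCtrl library, and LINC00472 overlaps between the lines.

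Of the 13 members, MIR30A alone passed the edgeR test against shCtrl, 1 of 13 (7.69%) with each hairpin and in the lower direction. Over all genes tested, 15.1% were called in sh718 and 5.02% in sh720, so the share of members called is near the background. By direction, 7.04% of genes were called higher and 8.05% lower in sh718, and 2.67% higher and 2.34% lower in sh720. In sh718 against sh720, where 19.2% of all genes were called (8.96% higher and 10.3% lower), edgeR called 0 of 13 members, 0 had an unadjusted p under 0.05, and DESeq2 called 0, with no adjusted p for 3. The other 12 members gave 0 edgeR calls and 0 unadjusted edgeR p-values under 0.05 against shCtrl with either hairpin. DESeq2 also called 0 of them, but it gave no adjusted p for 10 of the 12 in sh718 and for 3 in sh720, and these could not be called. Their lowest adjusted p was 0.230 in sh718 and 0.407 in sh720.

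The estimates of those 12 genes ran between -0.90 and 1.66 on the log2 scale in sh718, with a median of 0.29, and between -1.67 and 2.18 in sh720, with a median of 0.06. The medians over all genes tested were 0.02 and 0.01. Their standard errors ran from 0.39 to 1.42 in sh718 and from 0.43 to 1.25 in sh720, and fitted values of genes with so few counts depend on the prior count. The exact interval of the ratio of summed counts included 1 for all 12 in both comparisons. Differences of several fold in most of these genes were not detectable at this depth. Groups whose libraries did not overlap in CPM occurred for 2 of 13 members in sh718 against shCtrl, MIR30A and MIR1244-2, beside 29.2% of all genes. In sh720 against shCtrl they occurred for 4, MIR30A, AC091825.1, SNORA11F and AC009131.1, beside 20.7% of all genes. In raw counts, libraries of sh720 and shCtrl tied at 3 for AC091825.1 and at 1 for AC009131.1, so these separations rest on the scaling.

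**Figure D3:**
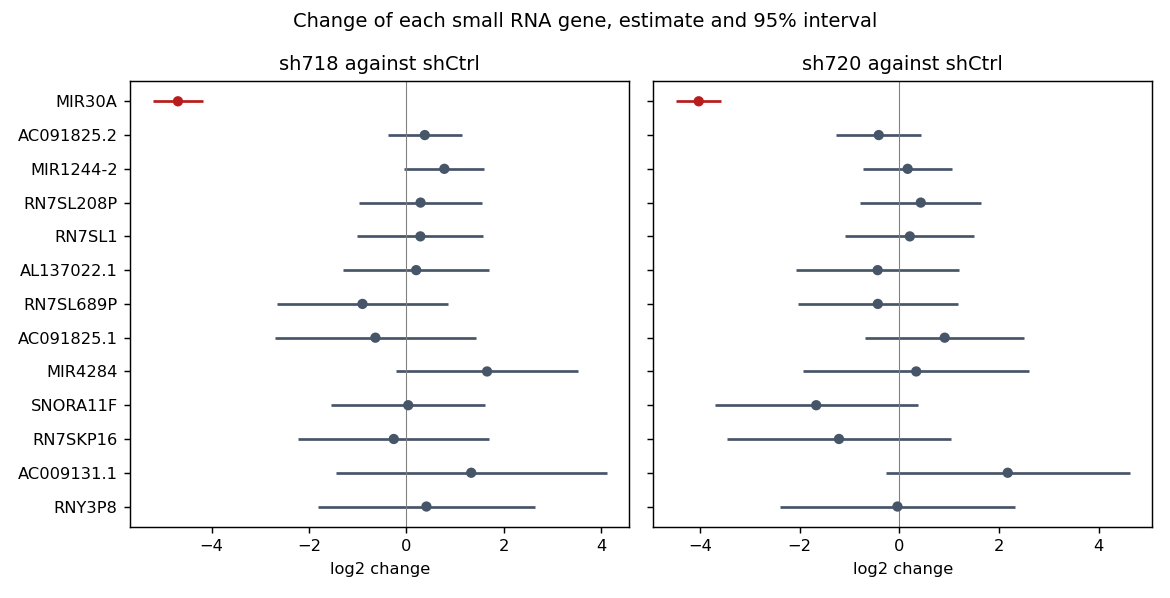
Log2 change of each of the 13 small RNA genes in sh718 against shCtrl (left) and in sh720 against shCtrl (right). Points are edgeR estimates, and red marks genes with an adjusted p under 0.05. Lines are 95% intervals built from the back-calculated SE, and those of MIR30A are narrower than its exact intervals for counting error. MIR30A lies at -4.69 and -4.03, and every other interval crosses 0.

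MIR1244-2, the second microRNA member, is a copy of a hairpin that also lies in the messenger RNA of PTMA, a gene for the chromatin-associated acidic protein prothymosin alpha. It lies at chr5:118974586-118974670 on the plus strand, within the RefSeq span of the PTMA pseudogene PTMAP2 and in an intron of DTWD2 on the opposite strand. Its 85 bases occur unchanged in transcripts of PTMA and in MIR1244-1, MIR1244-3 and MIR1244-4, so reads could not be assigned to a single copy by sequence alone. MIR1244-2 had 9, 9 and 14 counts in sh718, 10, 4 and 8 in sh720, and 4, 8 and 7 in shCtrl. Each sh718 library had more counts than each shCtrl library, and sh720 overlapped shCtrl. The change was not called in sh718 (0.78, SE 0.42, adjusted p = 0.230) or in sh720 (0.17, SE 0.46, adjusted p = 0.921).

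Over the 9 libraries, PTMA, PTMAP2 and DTWD2 had 14355, 159 and 84 counts, against 73 for MIR1244-2. The identical copies MIR1244-3 and MIR1244-4 had 8 and 1. PTMA had 1772, 1821 and 2055 counts in sh718, 1413, 1500 and 1813 in sh720, and 1249, 1202 and 1530 in shCtrl. It rose in sh718 by 0.55 (SE 0.06, adjusted p = 4.91e-12). In sh720 its value was 0.21 (SE 0.06, adjusted p = 0.0367), and the call was lost under several alternatives, among them the omission of any shCtrl library, with adjusted p up to 0.423. PTMAP2 had 1, 3 and 2 counts in sh718, 47, 55 and 49 in sh720, and 1, 1 and 0 in shCtrl, and the sh720 libraries stood far above all others. The ratio of its summed counts in sh720 to the 2 counts of shCtrl was 73.4, with an exact 95% interval of 19.96 to 611, and the gene rose in sh720 (adjusted p = 3.18e-22). In sh718 it was not called (adjusted p = 0.357). MIR1244-2 lies inside the RefSeq span of PTMAP2 but 464 bases outside its GENCODE v29 span. It had 22 counts in sh720, where PTMAP2 had 151, against 19 counts in shCtrl.

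MIR4284, the gene of a microRNA with few described roles, lies at chr7:73711317-73711397 on the plus strand in an intron of STX1A on the opposite strand. It had 0, 9 and 1 counts in sh718, 0, 1 and 3 in sh720, and 0, 0 and 3 in shCtrl. A single sh718 library held 9 of the 10 sh718 counts, and the lines overlapped. The ratio of summed counts was 3.42 in sh718 against shCtrl (exact 95% interval 0.881 to 19.3) and 1.30 in sh720 against shCtrl (0.219 to 8.85). STX1A, a gene for a syntaxin of the secretory vesicle fusion machinery, had 93, 108 and 106 counts in sh718, 44, 45 and 62 in sh720, and 45, 56 and 65 in shCtrl. STX1A rose in sh718 by 0.92 (SE 0.15, adjusted p = 1.93e-07), and its change in sh720 was not called (-0.18, adjusted p = 0.695). The sources used here do not give the strand setting of the counting, so reads of MIR4284 and of intronic STX1A RNA cannot be told apart.

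**Figure D4:**
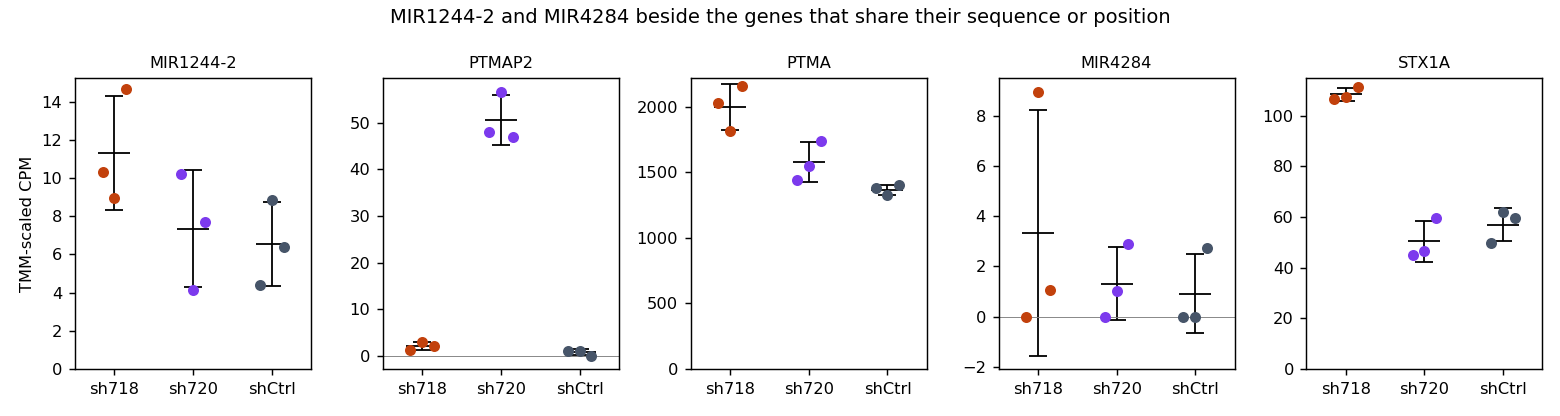
TMM-scaled CPM of MIR1244-2, the pseudogene PTMAP2 whose RefSeq span holds it, PTMA that holds the same sequence, MIR4284, and STX1A whose intron holds MIR4284. Points are libraries of sh718, sh720 and shCtrl, with mean and SD over 3 libraries. PTMAP2 is high in sh720 alone, STX1A is high in sh718 alone, and the MIR1244-2 and MIR4284 points are few counts with wide bars.

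AC091825.2 and AC091825.1 are annotated pieces of 1 longer RNA. They lie 127 bases apart at chr5:142317830-142317920 and chr5:142318047-142318167 on the plus strand, both inside the RefSeq long non-coding RNA SPRY4-IT1, which is transcribed opposite to an intron of SPRY4, a gene for an inhibitor of receptor tyrosine kinase signalling. AC091825.2 had 10, 16 and 7 counts in sh718, 6, 7 and 7 in sh720, and 11, 6 and 9 in shCtrl. Both hairpin lines overlapped shCtrl. In CPM the sh718 libraries stood above the sh720 libraries, with a log2 difference of 0.79 by edgeR (SE 0.41, adjusted p = 0.184). In raw counts sh718 library 3 and sh720 libraries 2 and 3 tied at 7, so this separation rests on the scaling. The libraries of sh718 and sh720 did not overlap in CPM for 2 of 13 members, beside 32.4% of all genes.

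AC091825.1 had 0, 3 and 0 counts in sh718, 4, 3 and 3 in sh720, and 1, 1 and 3 in shCtrl. Its ratio of summed counts in sh718 to sh720 was 0.317 (exact 95% interval 0.0560 to 1.23), with an adjusted p of 0.253 by edgeR. Without sh718 library 2, which held all sh718 counts of the gene, that comparison passed the test (adjusted p = 0.0401). The neighbouring pieces thus had 33 and 3 counts in sh718, 20 and 10 in sh720, and 26 and 5 in shCtrl, with AC091825.2 given first. SPRY4 had 36, 24 and 32 counts in sh718, 38, 47 and 44 in sh720, and 51, 44 and 55 in shCtrl. It fell in sh718 (-0.66, SE 0.19, adjusted p = 0.00924), a call lost without sh718 library 2 (adjusted p = 0.134) and with DESeq2 (adjusted p = 0.104), and it was not called in sh720 (-0.26, adjusted p = 0.537).

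The 3 SRP RNA members are RN7SL1, a functional SRP RNA gene on chromosome 14, and the copies RN7SL208P and RN7SL689P on chromosome 5. RN7SL1 had 2, 7 and 3 counts in sh718, 5, 3 and 4 in sh720, and 6, 4 and 0 in shCtrl. RN7SL208P had 4, 6 and 2 counts in sh718, 7, 4 and 3 in sh720, and 2, 5 and 3 in shCtrl. RN7SL689P had 0, 2 and 2 counts in sh718, 4, 1 and 1 in sh720, and 4, 1 and 3 in shCtrl. The lines overlapped for each of the 3 genes. All 299 bases of RN7SL1 lie in the overlapping transcript AL139099.4. Of these bases, 209 in a row are shared with RN7SL5P and 205 with RN7SL2, so the RN7SL1 counts are uncertain. The longest run that RN7SL208P and RN7SL689P share in the same orientation with another gene was 35 and 44 bases, shorter than a read.

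The genes around these copies were also tested. RPS29, a ribosomal protein gene whose intron holds RN7SL1 on the opposite strand, had an estimate of -0.24 in sh718 (adjusted p = 0.0197), lost without sh718 library 3 (adjusted p = 0.0689), without shCtrl library 2 (adjusted p = 0.147) and with DESeq2 (adjusted p = 0.113). F2RL1, a gene for the protease-activated receptor PAR2, lies 1585 bases from RN7SL208P. It fell by 1.52 in sh718 (SE 0.14, adjusted p = 2.55e-17) and was not called in sh720 (0.23, adjusted p = 0.279), and the difference between the hairpin lines was called (-1.75, adjusted p = 4.55e-22). SNX24, whose intron holds RN7SL689P, was not called with either hairpin.

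The 2 snoRNA members are AL137022.1, named SNORD39 in the reference gene names, and SNORA11F. AL137022.1 lies at chr9:21524307-21524382 on the minus strand in an intron of MIR31HG, the host gene of miR-31 on the same strand. It had 7, 1 and 1 counts in sh718, 0, 2 and 4 in sh720, and 4, 3 and 1 in shCtrl, and the lines overlapped. MIR31HG was not called in sh718 (-0.09, SE 0.24) or in sh720 (-0.06, SE 0.23). SNORA11F lies at chr10:73126080-73126207 on the minus strand in an intron of NUDT13 on the opposite strand, and had 2, 3 and 2 counts in sh718, 1, 1 and 0 in sh720, and 2, 2 and 3 in shCtrl. Its sh720 libraries were below those of both other lines, on 2 counts in all, and its ratio in sh720 to shCtrl was 0.278 (exact 95% interval 0.0281 to 1.46).

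The remaining members are the 7SK copy RN7SKP16 and the Y RNA copies AC009131.1 and RNY3P8. On the same strand, RN7SKP16 lies in an intron of PHC2, and AC009131.1 lies in introns of UTP4 and SNTB2. PHC2, UTP4 and SNTB2 had 2452, 615 and 713 counts over the 9 libraries. Whether the counts of the 2 members are intronic reads of these genes was not tested. RN7SKP16 had 2, 1 and 1 counts in sh718, 2, 0 and 0 in sh720, and 1, 1 and 3 in shCtrl. AC009131.1 had 0, 1 and 2 counts in sh718, 3, 1 and 2 in sh720, and 0, 0 and 1 in shCtrl. RNY3P8 had 3, 1 and 0 counts in sh718, 0, 0 and 3 in sh720, and 1, 1 and 1 in shCtrl. AC009131.1 had 6 counts in sh720 against 1 in shCtrl, a ratio of 5.83 with an exact 95% interval of 0.707 to 268. The other ratios of this group, like that one, had intervals that included 1.

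**Figure D5:**
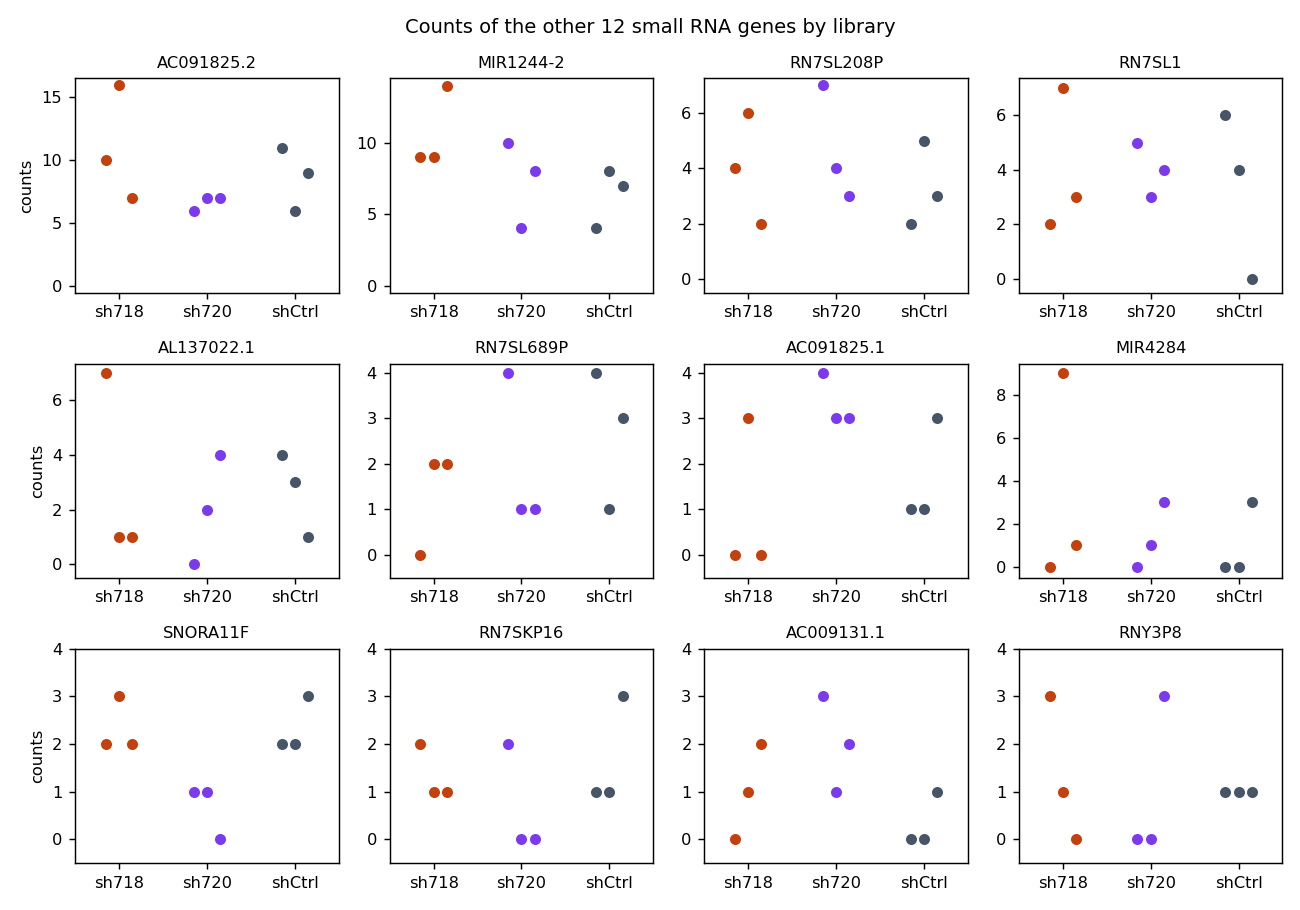
Counts of the 12 small RNA genes other than MIR30A in each library of sh718, sh720 and shCtrl. Points are libraries. No library of any of these genes exceeds 16 counts, and most panels hold points between 0 and 9.

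Features that the selection did not use are given here as a description. The shares of all small RNA genes inside introns or on chromosome 5 were not computed. In GENCODE v29, 11 of the 13 lay inside an intron of another gene, 4 of them with an intronic host on the same strand and 7 with intronic hosts on the opposite strand alone, and 2 overlapped no other gene. RefSeq adds genes that GENCODE v29 does not place there, namely SPRY4-IT1 over both AC091825 members, the longer span of PTMAP2 over MIR1244-2, and LOC102724149 over part of RNY3P8. They were 71 to 299 bases long, 9 of them under 200 bases, and 5 lay on chromosome 5. GC content ran from 31.8% in MIR1244-2 to 62.9%, with MIR30A at 53.5%, and no member held a run of more than 5 adenines. Over all annotated genes of a class, median GC was 50.9% for miRNA, 43.7% for snoRNA and 48.6% for misc_RNA. The median longest adenine run was 3, 3 and 4 in the same order. Only MIR1244-2 and RN7SL1 shared an exact run of 75 bases or more in the same orientation with a transcript of another gene.

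By class, the microRNA members held 18.9 ± 2.65 counts per 1000000 library counts in sh718, 16.5 ± 4.90 in sh720 and 129 ± 12.9 in shCtrl (SD, n = 3 each). The misc_RNA members held 25.7 ± 9.67 in sh718, 24.9 ± 5.93 in sh720 and 23.6 ± 4.66 in shCtrl. The snoRNA members held 5.71 ± 3.90, 2.74 ± 1.55 and 5.28 ± 1.56 in the same lines, and their sh718 share was 3.48 without sh718 library 1. The difference between lines in the microRNA class is that of MIR30A, and the ranges of the misc_RNA and snoRNA shares overlapped between the lines. The 464 rows under the minimum held 306 counts in sh718, 253 in sh720 and 319 in shCtrl. No snRNA or scaRNA row reached the minimum, and the 131 snRNA rows summed to 78, 75 and 85 counts in the same order of lines.

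Proteins that make or carry small RNAs were set beside the members, as counts of genes called by edgeR. These shares are to be read beside the 15.1% of all genes called in sh718 and the 5.02% in sh720. Of 16 microRNA processing genes, sh718 had 0 higher and 1 lower and sh720 had 0 higher and 2 lower (6.25% and 12.5% called), with median log2 changes of 0.11 and -0.18. DDX5, a helicase of the Drosha complex, fell in sh720 by 0.35 (SE 0.08, adjusted p = 0.00128). Of 17 snoRNP genes, 1 rose and 2 fell in sh718 (17.6% called) and 0 were called in sh720, with medians of -0.13 and 0.04.

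Of 33 snRNP and 7SK protein genes, sh718 had 2 higher and 3 lower and sh720 had 0 higher and 2 lower (15.2% and 6.06% called), with medians of 0.08 and 0.04. SNRPB, a core Sm protein, rose in sh718 by 0.32 (adjusted p = 0.000707), and GEMIN2, which loads Sm proteins onto snRNA, fell by 1.41 (adjusted p = 0.000655). Of 8 SRP protein genes, 1 rose and 2 fell in sh718 (37.5% called) and 0 were called in sh720, with medians of -0.09 and 0.05. SRP9, which binds the Alu domain of SRP RNA, fell in sh718, at 132, 137 and 146 counts in sh718, 354, 363 and 329 in sh720, and 298, 313 and 336 in shCtrl. Its log2 change in sh718 was -1.15 (SE 0.10, adjusted p = 1.22e-18). All sh718 libraries were below all others, in the line where the RN7SL1 counts overlapped shCtrl.

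Of 14 Integrator subunits, which cleave snRNA transcripts, 0 rose and 3 fell in sh718 (21.4% called) and 0 were called in sh720, with medians of -0.25 and -0.07. INTS13 fell in sh718 by 0.90 (adjusted p = 5.64e-07). None of 9 RNase P and MRP protein genes and none of 5 vault and Ro protein genes passed the test in either line. The medians were -0.18 and -0.18 for the first list and 0.13 and -0.13 for the second, with sh718 given before sh720.

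Of 41 genes that host snoRNAs or microRNAs, sh718 had 4 higher and 5 lower and sh720 had 1 higher and 3 lower (22% and 9.76% called), with medians of 0.04 and -0.06. SNHG1, a non-coding snoRNA host, had 71, 108 and 86 counts in sh718, 199, 198 and 209 in sh720, and 73, 90 and 97 in shCtrl. It rose in sh720 by 1.18 (SE 0.12, adjusted p = 2.88e-14). HSPA8, a chaperone gene whose introns hold snoRNAs, rose in sh718 by 0.44 (adjusted p = 1.24e-05) and fell in sh720 by 0.61 (adjusted p = 2.7e-08). IGF2BP3, an RNA-binding protein gene of the same list, rose in sh718 by 1.61 (adjusted p = 1.65e-07).

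Among genes reported as miR-30 targets, those called in sh718 were lower and most of those called in sh720 were higher. Of 13 tested, 0 rose and 3 fell in sh718 (23.1% called, beside 15.1% of all genes), with a median of -0.19. In sh720, 4 rose and 1 fell (38.5% called, beside 5.02% of all genes), with a median of 0.02. In sh718 against sh720, 0 were higher and 7 lower (53.8% called, beside 19.2% of all genes), with a median of -0.53. The list was not tested as a set. SOX9, a transcription factor gene, fell in sh718 by 0.82 (adjusted p = 9.76e-07). VIM, which encodes the intermediate filament vimentin, rose in sh720 by 0.32 (adjusted p = 1.91e-05). MIR30A was low in both of these lines, but its counts are not a level of mature microRNA. A link between MIR30A and these genes was not tested.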

How the data were processed

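The authors deposited raw counts per gene for 9 libraries, 3 per line, with no normalization. GEO lists 1 sample per line, and each numbered column was treated as 1 library of the line in its name, leaving 0 columns unused. Trim Galore and GRCh38 are named per the submitters' processing notes. For the aligner, counter, strand setting and annotation release, nothing is given in the sources used here. Each library held 883663 to 1108960 counts, and intervals on them cover counting error only. Libraries of a line differed beyond sampling noise (chi-square per degree of freedom 1.31 to 2.40), so each was kept.

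The quasi-likelihood test of edgeR 4.0.16 in R 4.3.3 (TMM scaling) was fitted to all 9 libraries over the 13138 genes with at least 10 counts. Adjusted p-values are Benjamini-Hochberg values over these genes, called under 0.05. Alternatives were a minimum of 60 counts, no minimum, RLE scaling, a replicate block, the compared libraries alone, each library left out, and DESeq2 1.42.0. The scripts were tested on simulated data. Deviations of same-numbered libraries correlated at r of -0.0126 to 0.0219 over 9 pairs, and those of differently numbered libraries at -0.0434 to 0.0413. Counting error can hide a shared deviation at this depth, so whether the numbers pair the libraries cannot be told from these values. The main fit did not pair them.

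Classes and symbols are those of the deposited table, and positions of 13 of 13 members came from GENCODE v29. Named genes were the members, the genes that hold, overlap or neighbour them or share their sequence, CTHRC1, and the leading member of each list per direction and comparison whose call held under every alternative. The last condition was set after values were seen. Other called list members are only counted. Members and lists were chosen with earlier results of these data known.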

Additional observations from a re-analysis of the deposited data

Results flagged for a closer look

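The edgeR test called a difference between sh718 and sh720 in 0 of 13 small RNA members. Several genes set beside them did, and the values here are log2 changes of sh718 against sh720, each with an adjusted p under 0.05. Among genes that hold, neighbour or share sequence with a member, PTMAP2 (-4.49), F2RL1 (-1.75) and RPS29 (-0.20) were lower in sh718, and STX1A (1.1) and PTMA (0.34) were higher. The RPS29 call was lost under most alternatives. The targeted gene CTHRC1 (-3.06) was lower in sh718.

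Among the list genes, GEMIN2 (-1.47), SRP9 (-1.26), SNHG1 (-1.12), INTS13 (-0.89), SOX9 (-0.53) and VIM (-0.24) were lower in sh718 than in sh720. IGF2BP3 (1.48), HSPA8 (1.05) and DDX5 (0.48) were higher. The SOX9 difference was lost without sh720 library 2 (adjusted p = 0.0835). With 3 libraries per line, single libraries were not tested as outliers.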

How the results depend on the processing

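MIR30A kept its direction and its call against shCtrl under all alternatives run, between -4.88 and -4.45 in sh718 and between -5.33 and -3.56 in sh720, with the highest adjusted p from DESeq2 (3.28e-10 and 2.41e-08). The members called in sh718 against sh720 were 0 to 1 when libraries were left out, the 1 being AC091825.1. Over all genes, DESeq2 called 970 in sh718, 298 in sh720 and 1254 in sh718 against sh720, where edgeR called 1983, 659 and 2526. DESeq2 gave no adjusted p for 10 members in sh718, 3 in sh720 and 3 in sh718 against sh720, and the cause of its fewer calls was not tested. Leaving out single libraries gave 1527 to 1704, 454 to 515 and 1978 to 2135 calls. With the replicate block the counts were 2023, 697 and 2551, MIR30A stayed at -4.69 and -4.02, and the block changed no call of a member. With members limited to 60 counts, the microRNA share in sh718 was 15.6 counts per 1000000, and the misc_RNA shares were 11.4 in sh718, 6.84 in sh720 and 9.01 in shCtrl, since fewer genes enter; no snoRNA member had 60 counts. With mitochondrial counts left out of the totals, the microRNA share was 22 in sh718 and 152 in shCtrl. Depth limits the 12 other members, none with more than 79 counts.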
